A study of Mus musculus with 2 samples.

Results

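The S100 genes examined here were 10 of the 32285 genes in the count files, namely *S100a1*, *S100a4*, *S100a6*, *S100a8*, *S100a9*, *S100a10*, *S100a11*, *S100a13*, *S100a16* and *S100b*. They were taken as a list of names drawn up with earlier results of these data known, and all 10 were found once by symbol. The counts came from Lewis lung carcinoma (LLC) tumors, which grew from a mouse lung carcinoma line placed under the skin of C57BL/6 mice. The study asked what deletion of the nitric oxide receptor soluble guanylate cyclase in pericytes does to the tumor. The control library (CT) came from *Gucy1b1* flox/flox mice, and the KO library came from *Cspg4-CreERT2::Gucy1b1* flox/flox mice (the label spells the allele Gucyc1b1), so both groups carried the floxed allele and only KO carried Cre. At 4 weeks of age the mice of both groups were given 5 tamoxifen doses, they were inoculated at 8 weeks and the tumors were taken 2 weeks later. Cre was driven by *Cspg4*, the gene of the NG2 proteoglycan, which marks pericytes but is also made by other mural and progenitor cells. Each library pooled the cells of 3 tumors, so that genotype and library cannot be told apart and no test between genotypes was possible.

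S100 proteins are small proteins of the EF-hand type that act mostly as dimers. Most of them bind calcium, and bind partner proteins when calcium rises. *S100a8* and *S100a9* encode the subunits of calprotectin, an abundant cytosolic protein of neutrophils that is released in inflammation and binds receptors such as TLR4 and RAGE. *S100a4* is known for binding non-muscle myosin, *S100a6* for binding the calcyclin-binding protein, *S100a10* for its complex with annexin A2, *S100a11* for annexin A1, and *S100a13* for the export of FGF1 and interleukin 1 alpha.

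A unique molecular identifier (UMI) counts a captured transcript once. The libraries held 15007 barcodes with 487859656 UMIs (CT) and 25631 barcodes with 436352742 UMIs (KO). After a filter on mitochondrial share and depth, 12220 and 22498 cells remained, with medians of 35776.5 and 8685 UMIs. The limit on UMI and gene number alone removed 946 CT and 0 KO barcodes. Mitochondrial share alone removed 1496 and 3132, and both limits together removed 345 and 1. Both libraries listed 131 of the same barcodes, 0.873% of the CT and 0.511% of the KO barcodes, and the values without them are given with the other alternatives. Cells were assigned to classes by summed marker lists without any S100 gene. This left 9 classes with enough cells in both libraries: cancer cells (7426 CT and 13036 KO), macrophages (1914 and 2123), monocytes (255 and 230), granulocytes (213 and 208), dendritic cells (42 and 36), T cells (52 and 58), endothelial cells (ECs, 63 and 54), pericytes (36 and 28) and fibroblasts (120 and 204). The gate is a range of list levels, and between 0 and 204 cells of a class and library lay within the lowest step above its cut (under 0.30 of the reference level, cut at 0.25). The cancer-cell list stood at 4.74% to 11.1% of its cancer-cell level in the 8 other classes, so that no class was free of cancer-cell markers. *Gucy1b1*, the deleted gene, had 58 UMIs in CT pericytes and 12 in KO pericytes. Scaled to 1000000 UMIs of the class and library, the unit called CPM for all levels given here, these were 130 and 44.2 CPM, although a 3′ tag need not lie in the deleted exons.

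The annotation placed 9 of the 10 genes on chromosome 3 of GRCm38 and *S100b* on chromosome 10 (76253853 to 76261159, plus strand). *S100a1* (90511034 to 90514392, minus strand) and *S100a13* (90514435 to 90524581, plus strand) faced away from each other with 42 bases between them. *S100a16*, *S100a4*, *S100a6*, *S100a8* and *S100a9* followed within 185 kb, and *S100a11* and *S100a10* lay 2.82 Mb further on. *S100a8* (90668978 to 90670035, plus strand) and *S100a9* (90692632 to 90695721, minus strand) were neighbors, 22596 bases apart, and pointed toward each other. Since their levels followed each other most closely across classes, their upstream sequences are printed. The RefSeq promoter table (GRCm38.p6) held 9 of the 10 genes, all but *S100a10*. The window searched was the 250 bases before the RefSeq start. The last 93 bases of the *S100a8* window lie in the first exon (5′ UTR) of the GENCODE model, which starts further upstream, so of these only 30 bases around the TATA box are printed. The lines read 5′ to 3′ in the direction of transcription, with motif matches in capitals.
S100a8, chr3:90668821-90668977, plus strand: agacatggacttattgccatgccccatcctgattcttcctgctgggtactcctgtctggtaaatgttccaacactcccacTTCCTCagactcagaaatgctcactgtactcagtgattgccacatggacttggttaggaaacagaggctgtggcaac
S100a8 TATA box, chr3:90669026-90669055, plus strand: ggccaagctTTCCTCTATAAAagcagctga
S100a9, chr3:90695722-90695971, minus strand: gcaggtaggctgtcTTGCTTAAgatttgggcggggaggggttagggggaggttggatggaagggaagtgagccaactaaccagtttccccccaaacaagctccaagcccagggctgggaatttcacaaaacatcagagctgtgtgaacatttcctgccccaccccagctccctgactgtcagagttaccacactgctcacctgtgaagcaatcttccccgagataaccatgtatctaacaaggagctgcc
The motifs searched on both strands were the TATA box (TATAAA), the CCAAT box (CCAAT), a C/EBP site (TTGCNNAA), a PU.1 site (GAGGAA) and an AP-1 site (TGANTCA). The *S100a8* window held TATAAA with its first base 30 bases before the start, and GAGGAA on the minus strand at 170 and at 36 bases before the start, the latter match ending where TATAAA begins. The *S100a9* window held the C/EBP letters 236 bases before the start and none of the other motifs. Of the 32851 promoters in the table, 12.4% held TATAAA, 9.56% TTGCNNAA, 23.3% GAGGAA, 33.8% CCAAT and 6.75% TGANTCA in the same window. Among the other members TATAAA was found only in *S100a4*, 31 bases before the start.

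The levels of the family separated the classes into granulocytes and all others. S100 transcripts took 8.26% of all UMIs in CT granulocytes and 6.61% in KO granulocytes. In the other 8 classes they took between 0.567% (CT ECs) and 1.23% (KO monocytes). *S100a9* and *S100a8* made up 59.6% and 30.7% of the S100 UMIs in CT granulocytes and 57.7% and 31.2% in KO granulocytes. In each of the other classes *S100a6* was the member of the most UMIs in both libraries, from 31.0% of the S100 UMIs in CT dendritic cells to 70.5% in CT pericytes. In CT dendritic cells its lead was small, with 977 UMIs against 948 of *S100a4*. The cancer-cell list stood at 8.00% (CT) and 10.1% (KO) of its cancer-cell level in dendritic cells. In T cells it stood at 8.97% and 11.1%, and its part in the *S100a6* shares was not tested. The kit tags the 3′ end, so transcript length does not enter these counts. For 7 of the 10 genes the class of the highest level was the same in both libraries, and *S100a10*, *S100a13* and *S100b* were the exceptions. Among the 7, the lead over the next class did not exceed counting error for *S100a1* in CT or for *S100a11* and *S100a16* in KO.

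**Figure D1:**
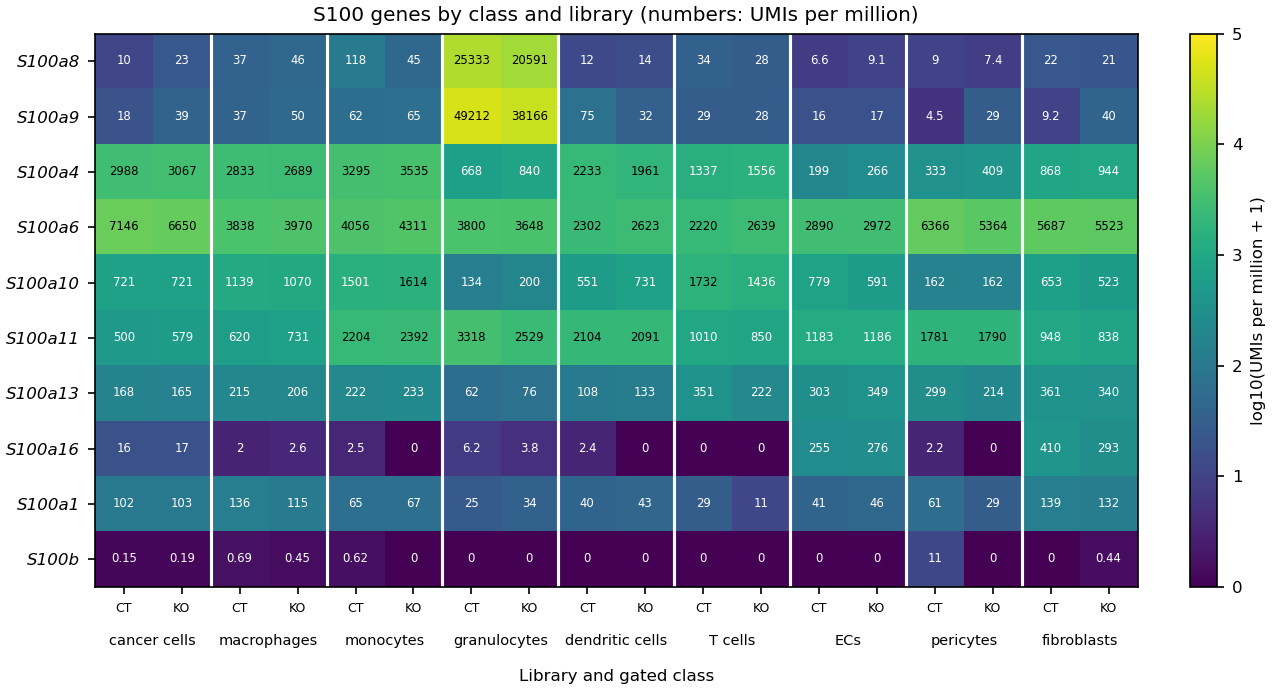
Levels of the 10 S100 genes (rows) in 9 gated classes of the CT and KO libraries (columns), in CPM, with the color on a log10 scale after adding 1. *S100a8* and *S100a9* reach 20591 or more in granulocytes of both libraries and 118 or less elsewhere, *S100a6* is at 2220 or more in every class, and *S100b* is at 0 in most columns.

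*S100a8* reached 25333 CPM in CT granulocytes (12248 UMIs, 95% Poisson interval 24886 to 25786) and 20591 in KO granulocytes (10787 UMIs, 20204 to 20983). Intervals here and below are exact, at 95%, and cover counting error only. *S100a9* reached 49212 (23793 UMIs) and 38166 (19994 UMIs). The next class in the mean of both libraries was monocytes for both genes, where *S100a8* was 281-fold and *S100a9* 685-fold lower than in granulocytes. In cells thinned to 1000 UMIs, *S100a8* was found in 88.7% of CT and 91.1% of KO granulocytes, and *S100a9* in 93.9% and 96.0%. Without thinning these shares were 92.0% and 91.3% for *S100a8* and 95.3% and 95.7% for *S100a9*. Fibroblasts and ECs gave thinned shares for *S100a8* of 0.833% and 3.61% (fibroblasts) and 1.59% and 1.89% (ECs). Unthinned, the shares were 12.5% and 15.7% (fibroblasts) and 12.7% and 14.8% (ECs). Their median depths of 3950.5 to 24275 UMIs lay above the 2153 and 2426.5 of granulocytes. Whether fibroblasts and ECs made these transcripts themselves was not tested.

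The genes also went together from cell to cell. Across the 213 CT and 208 KO granulocytes the shares of UMIs taken by *S100a8* and *S100a9* had a Spearman correlation of 0.907 and 0.893, which is given as a description, since both shares come from the same library and share each cell's depth. The median CT granulocyte held 39 *S100a8* and 85 *S100a9* UMIs, and the median KO granulocyte held 33.5 and 72. The highest single cells held 319 and 496 UMIs in CT and 463 and 691 in KO. Only 9 CT and 8 KO granulocytes had no UMI of either gene. Levels varied widely: among granulocytes with at least 2000 UMIs the *S100a9* quartiles were 16076 and 85845 CPM in CT and 12145 and 51366 in KO.

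**Figure D2:**
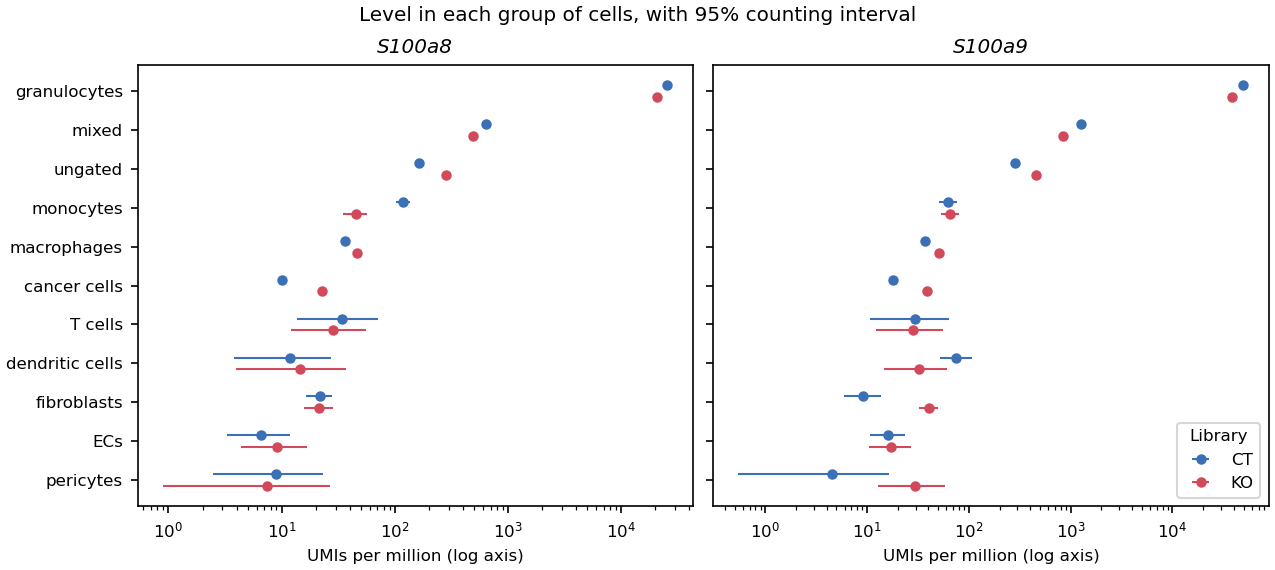
*S100a8* (left) and *S100a9* (right) in CPM on a log axis, by gated class and in the cells that were mixed or ungated, with the 95% counting interval. Granulocytes lie at 20591 or more in both libraries, and the CT and KO points of cancer cells are apart, at 10.1 and 22.8 for *S100a8*.

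Granulocytes contributed 1.94 *S100a9* UMIs for each *S100a8* UMI in CT (interval 1.90 to 1.99) and 1.85 in KO (1.81 to 1.90). The cells of the deeper part of the class, at or above its median depth, gave 1.89 in both libraries, and the shallower cells gave 2.08 in CT and 1.79 in KO. *S100a9* exceeded *S100a8* in 172 of 195 CT and 175 of 189 KO granulocytes with both genes. The ratio in cancer cells was 1.79 (1.72 to 1.86) in CT and 1.70 (1.65 to 1.74) in KO. In macrophages it was 1.02 (0.931 to 1.12) and 1.09 (0.998 to 1.20), and these intervals did not reach those of granulocytes. In monocytes it was 0.526 (0.409 to 0.673) in CT and 1.45 (1.05 to 2.01) in KO. Few cells set the lower classes: 2 cells held at least 50% of the 192 *S100a8* UMIs of CT monocytes, and 1 cell held 44 of the 59 *S100a8* UMIs of CT fibroblasts. Those fibroblasts had a ratio of 0.424, against 1.90 in KO fibroblasts.

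**Figure D3:**
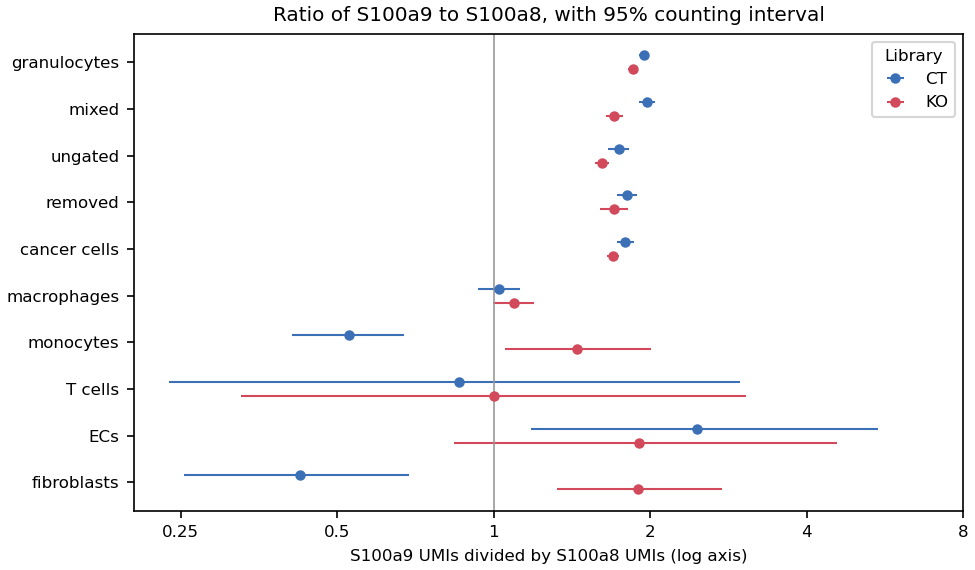
*S100a9* UMIs divided by *S100a8* UMIs on a log axis for each group of cells, with the exact 95% interval. Granulocytes, mixed, ungated, removed and cancer-gated cells lie between 1.61 and 1.97 in both libraries, macrophages lie at 1.02 and 1.09, and CT monocytes and CT fibroblasts lie at 0.526 and 0.424.

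Cells gated as granulocytes held less than 50% of the calprotectin transcripts. Of the 28198 *S100a8* UMIs in CT, 43.4% lay in gated granulocytes, 15.1% in cancer cells, 16.4% in mixed cells, 9.82% in ungated cells and 10.6% in barcodes removed by the filter. Of the 32517 in KO, 33.2% lay in granulocytes and 24.8% in cancer cells. The shares of *S100a9* in granulocytes were 45.7% of 52064 UMIs (CT) and 35.9% of 55721 (KO). Barcodes with at least 1% of their UMIs from *S100a8* and *S100a9* together numbered 176 of 213 CT and 181 of 208 KO granulocytes. Outside this class they numbered 69 mixed, 75 ungated and 56 removed barcodes in CT, and 87, 167 and 22 in KO. Within other gated classes they numbered 6 cancer cells, 2 macrophages, 1 monocyte, 1 EC and 3 erythroid cells in CT, and 20 cancer cells, 6 macrophages and 1 erythroid cell in KO. The filter's limits on UMI and gene number were set within each library, so removed and ungated barcodes need not be alike in CT and KO.

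*S100a4* and *S100a6* had broad but different distributions. *S100a4*, the myosin-binding member, was highest in monocytes at 3295 CPM in CT and 3535 in KO, followed by cancer cells (2988 and 3067), macrophages (2833 and 2689) and dendritic cells (2233 and 1961). It was lowest in ECs at 199 and 266, and in pericytes at 333 and 409. All 8 steps of this order were the same in both libraries, and each step exceeded its counting interval in both. The cancer-cell list's level in ECs, as a share of its cancer-cell level, times the cancer-cell level of *S100a4* comes to 193 and 145 CPM, against the 199 and 266 measured there. That share was 6.47% and 4.74% in ECs and 5.38% and 8.83% in pericytes. The part of this list in the order of pericytes and ECs was not tested. *S100a6*, calcyclin, was highest in cancer cells at 7146 and 6650. Pericytes (6366 and 5364) and fibroblasts (5687 and 5523) came next, and their order did not differ beyond counting error in KO. Monocytes, macrophages and granulocytes held between 3648 and 4311, ECs 2890 and 2972, and T cells and dendritic cells 2220 to 2639. Its range over classes was the narrowest among the 8 members with a level above 0 in every class and library, 2.84-fold between the highest and the lowest class in the mean of both libraries.

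*S100a10* and *S100a11*, the partners of annexins, had different profiles. *S100a10* was highest in T cells (1732 and 1436) and monocytes (1501 and 1614), which changed places between the libraries. It was lowest in granulocytes (134 and 200) and pericytes (162 in both). *S100a11* was highest in granulocytes (3318 and 2529), monocytes (2204 and 2392), dendritic cells (2104 and 2091) and pericytes (1781 and 1790), and lowest in cancer cells (500.5 and 579). Granulocytes and monocytes in KO, and monocytes and dendritic cells in CT, did not differ beyond counting error. *S100a10* was the higher of the pair in cancer cells, T cells and macrophages of both libraries, and *S100a11* in the 6 other classes.

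*S100a16* was highest in the stroma. It reached 410 and 293 CPM in fibroblasts and 255 and 276 in ECs, but in pericytes it had 1 UMI in CT and 0 in KO. A count of 0 allows up to 11.1 CPM in KO pericytes (3 counts). T cells had none in either library, which allows up to 14.6 and 10.6 CPM. Cancer cells held 16.3 and 17.3, and macrophages 2.00 and 2.60. In thinned cells *S100a16* was found in 35.8% of CT and 20.6% of KO fibroblasts and 20.6% and 24.5% of ECs, against 0.366% and 0.338% of macrophages. Unthinned, the shares were 95% and 62.7% of fibroblasts, 90.5% and 81.5% of ECs and 2.25% and 2.45% of macrophages. *S100a13* was spread more evenly, from 361 and 340 in fibroblasts and 303 and 349 in ECs to 62.1 and 76.4 in granulocytes, and its top steps (fibroblasts against T cells in CT, ECs against fibroblasts in KO) did not exceed counting error. *S100a1*, best known from muscle, was highest in fibroblasts (139 and 132), macrophages (136 and 115) and cancer cells (102 and 103). *S100b*, a marker of glia and Schwann cells, was close to absent, with 5 UMIs in 3 CT pericytes, 0 in KO pericytes, and 65 and 66 UMIs over all cancer cells (0.155 and 0.186 CPM). The gate found 2 Schwann cells in CT and 0 in KO. The files also list *S100a2*, *S100a3*, *S100a5*, *S100a7a*, *S100a14*, *S100g* and *S100z*, of which *S100a3* had the most UMIs in cancer cells (1875 and 1538, or 4.46 and 4.34 CPM).

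The genes whose class profile was most like that of each member were sought among 3454 genes with at least 100 CPM in a class, by Pearson correlation of log2 values (10 CPM added) over the 18 profiles of both libraries. For *S100a8* they were *Hcar2*, *Mirt2* and *Fpr1*, a formyl peptide receptor of neutrophils, each at 0.98. For *S100a9* they were *Cxcr2* and *Retnlg*, which belong to the gating list, and *Mirt2*, at 0.98 to 0.99. *S100a16* was followed by *Angptl4*, *Cxcl12* and *Cd34* (0.96 to 0.97). *S100a11* was followed by the interferon-inducible *Oasl2* and *Isg15* and by *Gcnt2* (0.90 to 0.91). *S100a13* was followed by *Rer1*, *Dad1* and *Tmed9*, genes of the early secretory pathway (0.92 to 0.93), and *S100a4* by *Rbpj*, *Lgals3* and *Kcnn4* (0.80 to 0.89). *S100a6* was followed by *Rdh10*, *Zcchc24* and *Asph* (0.87 to 0.88), *S100a10* by *Taf10*, *Ly6e* and *Hnrnpf* (0.80 to 0.85), and *S100a1* by *Gapdh*, *Mcfd2* and *Ap2a2* (0.80 to 0.87). *S100b*, at 11.2 CPM or less, was followed by *Gucy1b1*, *Myh11* and *Zfr* (0.74 to 0.81), which rests on 5 UMIs. Within the family *S100a8* and *S100a9* had 0.98, while neighbors on the chromosome could differ, as *S100a4* and *S100a6* did (0.06) or *S100a10* and *S100a11* (-0.44). The profiles share libraries and depth, so these correlations are descriptions.

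Transcripts of S100 partners were measured in the same classes. *Anxa2*, whose protein binds S100A10, was highest in monocytes (1230 and 1216 CPM) and ECs (1113 and 1058) and held 668 and 604 in pericytes, where *S100a10* was at 162. *Anxa1*, whose protein binds S100A11, was highest in pericytes at 585 and 810. The calprotectin receptor gene *Tlr4* was highest in granulocytes at 74.5 and 53.4, followed by macrophages at 34.6 and 31.8. *Ager*, the RAGE gene, had at most 6.75 CPM in any class. *Bsg*, *Emb* and *Cd36* are also on the list of S100 partners and receptors. They were highest in fibroblasts (*Bsg*, 1105 and 1049), monocytes (*Emb*, 427 and 398) and ECs (*Cd36*, 144 and 186). *Myh9*, a non-muscle myosin gene, was highest in ECs (491 and 715), the class of the lowest *S100a4*. *Cacybp*, the gene of the calcyclin-binding protein, was highest in cancer cells (274 and 277), as was *S100a6*. *Il1a*, whose product leaves cells with S100A13, was highest in granulocytes (86.9 and 66.8), the class of the lowest *S100a13*. *Fgf1* reached at most 13.6 CPM, in CT fibroblasts.

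The libraries were then compared within each class. A gene was counted where its level in KO was at least 2-fold above or below CT and both libraries together held 50 UMIs or more. Of 65 pairs of gene and class with enough UMIs, 4 were past 2-fold, 3 higher and 1 lower in KO, and the median log2 ratio over the 65 was 0.04. In cancer cells 2 of 10 members were past 2-fold (both higher in KO), where 4.25% of all 15427 genes were (4.11% higher and 0.136% lower in KO). In macrophages it was 0 of 9 (1.22% of all genes), in monocytes 1 of 8 (0.834%), in granulocytes 0 of 7 (2.66%), in dendritic cells 0 of 5 (3.83%), in T cells 0 of 5 (3.56%), in ECs 0 of 7 (1.68%), in pericytes 0 of 5 (2.75%) and in fibroblasts 1 of 9 (1.86%). All 4 pairs were *S100a8* or *S100a9* outside granulocytes.

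**Figure D4:**
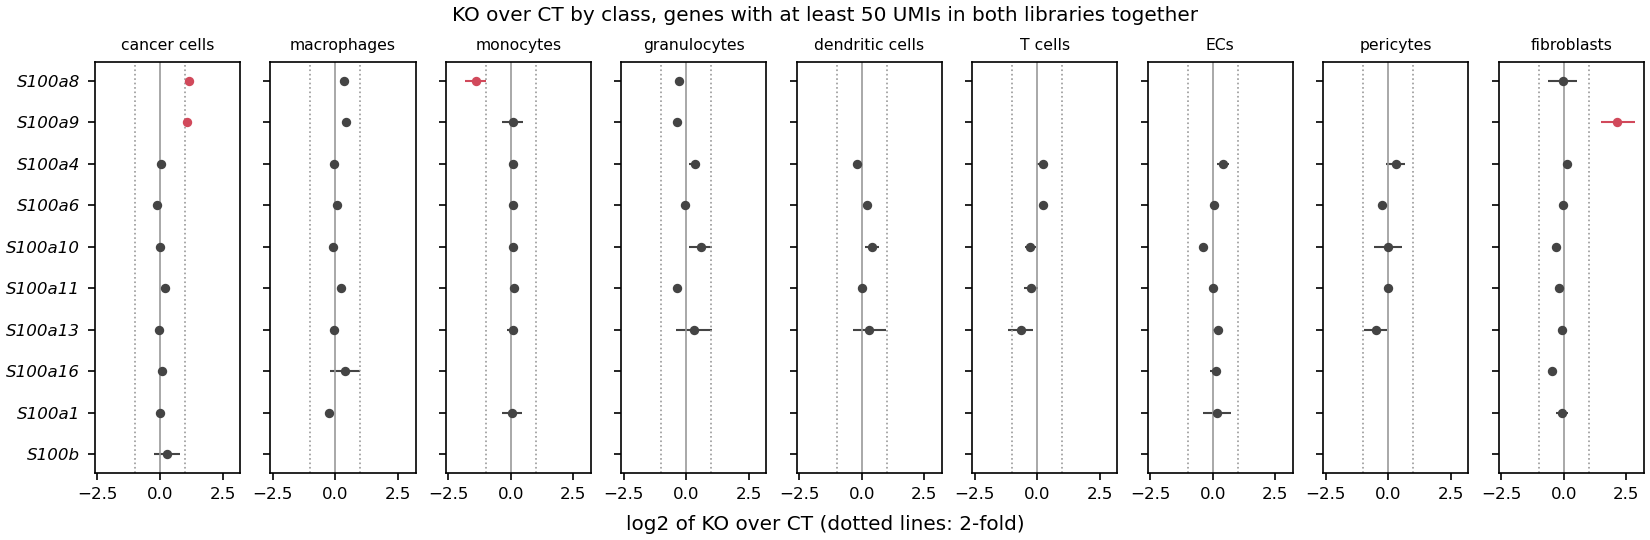
Log2 ratio of KO to CT levels of the S100 genes in each class, with exact 95% intervals, for genes whose UMIs in CT and KO summed to 50 or more; dotted lines mark 2-fold and red points lie past it. The 4 red points are *S100a8* and *S100a9* in cancer cells (1.17 and 1.09), *S100a8* in monocytes (-1.39) and *S100a9* in fibroblasts (2.13).

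In cancer cells *S100a8* had 10.1 CPM in CT and 22.8 in KO (log2 ratio 1.17, interval 1.11 to 1.22), and *S100a9* 18.2 and 38.6 (1.09, 1.05 to 1.13). For *S100a9* the ratio was under 2-fold at a gate level of 0.5 (0.99) and in cells thinned to 1000 UMIs (0.91). Counted per cell instead of in CPM, the libraries were nearly equal, at 0.574 and 0.619 *S100a8* UMIs and 1.03 and 1.05 *S100a9* UMIs per cancer cell. The median cancer cell held 51192.5 UMIs in CT and 14211 in KO. The granulocyte list stood at 0.113% of its granulocyte level in CT cancer cells and 0.239% in KO, so the summed list was higher in KO like both genes. Its part in the difference was not tested. In CT 18 cells held at least 50% of the *S100a8* UMIs of all 7426 cancer cells, and in KO 242 of 13036 did.

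In monocytes *S100a8* had 192 UMIs in CT (118 CPM) and 67 in KO (45.1), a log2 ratio of -1.39 (-1.82 to -0.98). Without the cell of the most *S100a8* UMIs in each library, which in CT held 59, the ratio was -1.22, and at a gate level of 0.5 it was -0.75. The share of monocytes with a UMI went the other way, at 13.3% in CT and 16.1% in KO (3.14% and 3.56% thinned), while *S100a9* was at 62.2 and 65.3 CPM (0.07, -0.35 to 0.49). In fibroblasts *S100a9* had 25 UMIs in CT (9.17 CPM) and 91 in KO (40.3), a log2 ratio of 2.13 (1.48 to 2.84), which was 1.53 without the top cell of each library, since 1 KO cell held 39 UMIs. *S100a8* in fibroblasts was level at 21.7 and 21.3 CPM (-0.03), but without the top cells it was 1.58 higher on the log2 scale in KO, since 1 CT cell held 44 of 59 UMIs. KO fibroblasts were shallower, with a median of 3950.5 UMIs against 21651.5. The granulocyte list was higher in KO in both classes, at 3.48% and 5.36% of its granulocyte level in monocytes, where *S100a8* was lower, and at 0.363% and 0.516% in fibroblasts. Its part in these values was not tested.

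In granulocytes the calprotectin genes were lower in KO by less than 2-fold. The log2 ratio was -0.30 for *S100a8* (-0.34 to -0.26), -0.37 for *S100a9* (-0.39 to -0.34) and -0.39 for *S100a11* (-0.50 to -0.29). Per cell, *S100a8* had 57.5 UMIs in CT and 51.9 in KO, and *S100a9* had 112 and 96.1. *S100a4* and *S100a10* were higher in KO, at 0.33 (0.12 to 0.54) and 0.58 (0.12 to 1.05), and *S100a6* had -0.06 (-0.15 to 0.03). The cancer-cell list was at 8.98% and 10.2% of its cancer-cell level in these granulocytes, and the macrophage list at 2.55% and 3.83% of its macrophage level. Of the 7 gating markers of the class, *Retnlg* (3469 and 1917 CPM), *Cxcr2* (771 and 521) and *G0s2* (5171 and 3864) were also lower in KO. *Il1r2* was at 972 and 874, *Csf3r* at 862 and 849, *Hdc* at 1926 and 1972 and *Clec4d* at 1591 and 1581. The part of the gate and of these markers in the S100 values was not tested. The middle 50% of the 2259 genes tested in granulocytes lay between -0.26 and 0.25, so *S100a8*, *S100a9* and *S100a11* fell below it and *S100a4* and *S100a10* above.

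In pericytes, the intended cells of the deletion, *S100a6* had 2831 UMIs in CT and 1456 in KO, or 6366 and 5364 CPM, a log2 ratio of -0.25 (-0.34 to -0.16). *S100a11* had 0.01 (-0.16 to 0.17), *S100a10* 0.00 (-0.57 to 0.56), *S100a4* 0.30 (-0.07 to 0.66) and *S100a13* -0.49 (-0.96 to -0.03). These rest on 36 and 28 cells and on pooled UMIs. Among pericytes with at least 2000 UMIs (36 CT and 23 KO) the median *S100a11* was 1615 CPM in CT and 1170 in KO. The medians of *S100a10* were 127 and 49.9, and those of *S100a6* were 5631 and 5003. For *S100a4* they were 280 and 301, and for *S100a13* 275 and 191. The quartiles of the log2 ratio over the 2183 genes tested in pericytes were -0.29 and 0.18. *S100a6*, *S100a10* and *S100a11* lay between them, *S100a13* below and *S100a4* above. The cancer-cell list was at 5.38% (CT) and 8.83% (KO) of its cancer-cell level in pericytes. *S100a4* was at 333 and 409 CPM there, against 2988 and 3067 in cancer cells. The part of this list in the pericyte values was not tested. In ECs *S100a10* was lower in KO (-0.40, -0.54 to -0.26) and *S100a4* higher (0.42, 0.19 to 0.65), while *S100a6*, *S100a11* and *S100a16* had intervals that held 0. These ratios come from pooled UMIs. Among ECs with at least 2000 UMIs (62 CT and 49 KO) the median *S100a6* was 2257 CPM in CT and 3450 in KO. The medians of *S100a11* were 1125 and 1095, and those of *S100a16* were 238 and 265. The cancer-cell list was at 6.47% (CT) and 4.74% (KO) of its cancer-cell level in ECs, and its part was not tested. In fibroblasts *S100a16* was lower in KO, at -0.48 (-0.62 to -0.34), as were *S100a10* (-0.32, -0.43 to -0.21) and *S100a11* (-0.18, -0.26 to -0.09). The quartiles over the 7990 genes tested in fibroblasts were -0.22 and 0.15. *S100a11* lay between them, and *S100a16* and *S100a10* below. *S100a4* was at 868 and 944 CPM in pooled UMIs. Among fibroblasts with at least 2000 UMIs (117 CT and 157 KO) its median was 444 CPM in CT and 889 in KO. The medians of *S100a16* were 362 and 212, those of *S100a10* 506 and 430, and those of *S100a11* 840 and 815. KO fibroblasts were shallower, with a median of 3950.5 UMIs against 21651.5 in CT. Their cancer-cell list was at 9.39% of its cancer-cell level, against 5.72% in CT. The part of depth and of this list was not tested. In the pooled UMIs of cancer cells *S100a11* was higher at 0.21 (0.20 to 0.22), and *S100a1*, *S100a4*, *S100a6*, *S100a10* and *S100a13* lay between -0.10 and 0.04. Among cancer cells with at least 2000 UMIs (7365 CT and 12709 KO) the median *S100a11* was 469 CPM in CT and 625 in KO. The medians of *S100a10* were 630 and 719, of *S100a4* 2799 and 3144 and of *S100a6* 7013 and 6800. Those of *S100a1* were 93.4 and 94.8 and of *S100a13* 153 and 149. In macrophages *S100a11* was higher at 0.24 (0.20 to 0.27) and *S100a1* lower at -0.24 (-0.32 to -0.17). *S100a9* was at 37.4 and 50.4 CPM there (0.43) and *S100a8* at 36.6 and 46.2 (0.34). The quartiles over the 11595 genes tested in macrophages were -0.18 and 0.08. The granulocyte list was at 1.64% and 2.43% of its granulocyte level in macrophages, and its part was not tested. In T cells *S100a13* had -0.66 (-1.17 to -0.15) from 72 and 63 UMIs, and in dendritic cells *S100a10* had 0.41 (0.13 to 0.68) from 234 and 203. Among dendritic cells with at least 2000 UMIs (42 CT and 31 KO) the median *S100a10* was 403 CPM in CT and 410 in KO. Among such T cells (45 and 54) the median *S100a13* was 318 and 186. The quartiles over all genes tested were -0.34 and 0.20 in dendritic cells and -0.30 and 0.17 in T cells.

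The partner list held 18 genes. It gave 108 pairs of gene and class with enough UMIs, of which 2 were past 2-fold, both in cancer cells and higher in KO. This was 2 of 18 partners in cancer cells, where 4.25% of all 15427 genes were past 2-fold (4.11% higher and 0.136% lower in KO). The 2 partners were *Il1a* with 32 and 77 UMIs (0.0762 and 0.217 CPM, log2 ratio 1.51, 0.90 to 2.15) and *Cd36* with 377 and 667 (0.898 and 1.88 CPM, 1.07, 0.88 to 1.25). In CT and KO cancer cells the macrophage list was at 0.957% and 2.14% of its macrophage level. The granulocyte list was at 0.113% and 0.239% of its granulocyte level. The part of these lists in both ratios was not tested. The median log2 ratio over the 108 pairs was -0.02. In pericytes *Anxa1* was at 0.47 (0.21 to 0.74), and in granulocytes *Anxa2* was at -0.49 (-0.75 to -0.24).

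Macrophages and cancer cells were numerous enough to be divided further. Cells with at least 5000 UMIs were ranked by the UMI share of a short list, and the 25% with the highest share were set against the other cells of the class and library. The lists for macrophages were MHC class II (*H2-Aa*, *H2-Ab1*, *H2-Eb1*, *Cd74*), resident-like (*Mrc1*, *Folr2*, *Cbr2*, *Ccl8*), osteoclast-like (*Ctsk*, *Mmp9*, *Acp5*, *Dcstamp*), Gpnmb (*Gpnmb*, *Mmp12*, *Hmox1*, *Fabp5*), hypoxia (*Ndrg1*, *Slc2a1*, *Bnip3*, *Adm*, *Ankrd37*) and cycling (*Mki67*, *Top2a*, *Cenpf*, *Hmmr*). *S100a11* was at 783 and 567 CPM in CT macrophages high and low in MHC class II, and at 974 and 633 in KO (log2 ratios 0.46 and 0.62). In the resident-like macrophages it was at 487 against 670 in CT and at 546 against 787 in KO (-0.46 and -0.53). *S100a4* was lower in the resident-like cells (-0.36 and -0.32) and in the Gpnmb cells (-0.35 and -0.31). *S100a6* was lower in the cycling cells (-0.45 and -0.39). *S100a9* was higher in the Gpnmb cells (1.94 and 0.93), where the granulocyte list was at 1.58 and 1.70 times its level in the other macrophages, and the part of that list was not tested. Few macrophages held much *S100a9*. Among those with at least 2000 UMIs its upper quartile was 0 CPM in both libraries, and the highest cells were at 10010.5 (CT) and 15400 (KO). The monocyte list moved with *S100a11*, at 3.14 and 2.84 times its level in the other cells for MHC class II and at 0.43 and 0.53 times for the resident-like cells, while the cancer-cell list stayed within 0.91 to 1.10 times. Its part in the *S100a11* values was not tested.

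In cancer cells *S100a16* varied more between states than *S100a1*, *S100a4*, *S100a6*, *S100a11* or *S100a13*. The cells high in the list of *Igfbp6*, *Clu*, *Scara5* and *Dpt* had 33.8 CPM in CT against 11.05 in the other cells, and 28.4 against 13.8 in KO (log2 ratios 1.61 and 1.04). Those high in *Prg4*, *Aspn*, *Ptn* and *Lum* had 1.08 and 0.85, and the cycling cells had -1.23 and -0.57. *S100a1* and *S100a13* followed with smaller ratios in the same directions. In the *Igfbp6* cells they were at 0.49 and 0.39 (*S100a1*) and 0.49 and 0.40 (*S100a13*). In the cycling cells they were at -0.52 and -0.34 (*S100a1*) and -0.42 and -0.33 (*S100a13*). *S100a4* was lower in the *Prg4* cells (-0.46 and -0.33) and in the hypoxic cells (-0.40 and -0.24). The fibroblast list, without the genes of the state list, moved with *S100a16*, at 1.89 and 1.59 times its level in the other cells for *Igfbp6*, 2.32 and 1.99 times for *Prg4* and 0.57 and 0.67 times for cycling. Its part in the *S100a16* values was not tested, and the level of *S100a16* stayed far under the 410 and 293 CPM of fibroblasts.

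**Figure D5:**
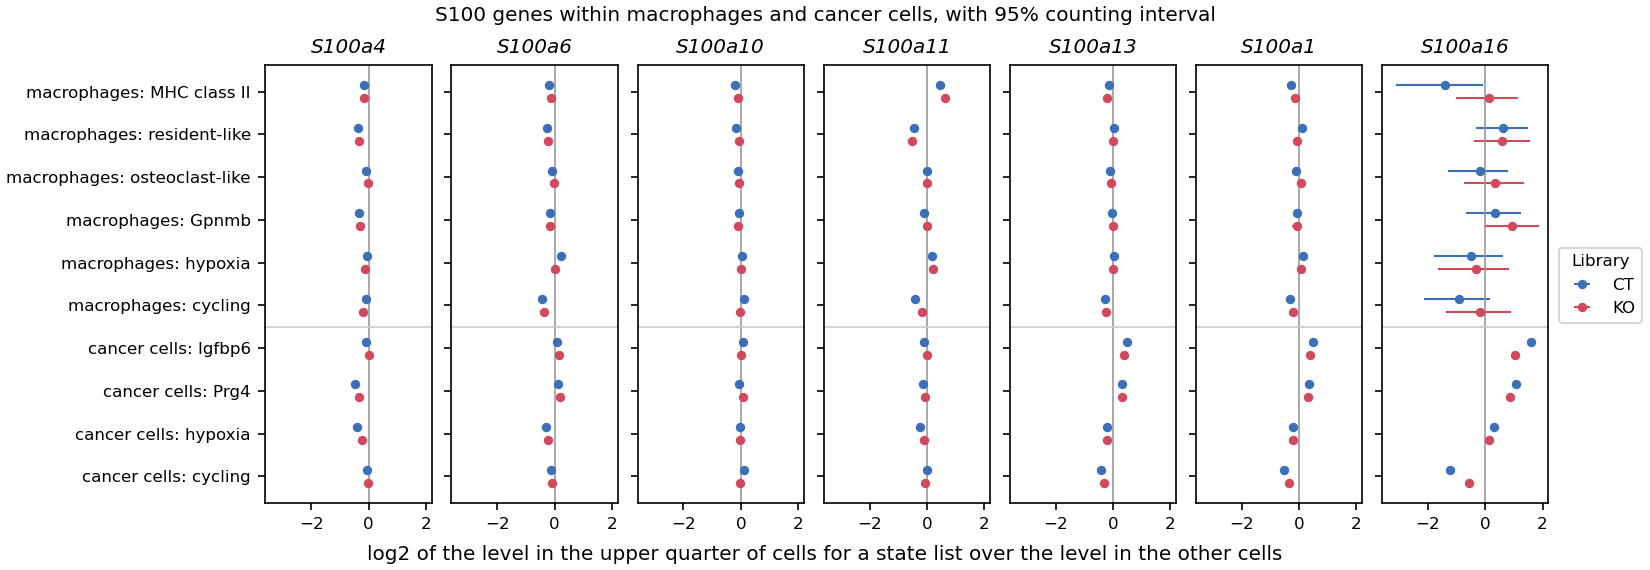
Log2 ratio of the level of 7 S100 genes in the 25% of cells highest for a state list to the level in the other cells, for macrophages (upper rows) and cancer cells (lower rows) of each library, with exact 95% intervals. *S100a11* lies to the right for MHC class II and to the left for resident-like macrophages in both libraries, and *S100a16* lies at 1.61 and 1.04 for the *Igfbp6* list of cancer cells.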

How the data were processed

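Single-cell 3′ libraries were counted by the authors with Cell Ranger 6.1.1, per the labels' processing notes and the study's methods, on mm10, and the UMI counts were deposited for each gene and barcode. The counts were used as they stand, as whole numbers. The authors' cell annotation was not used here. Their methods name granulocytes by *S100a9*, so no S100 gene was put in a marker list. The members and all lists were chosen with earlier results of these data known.

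A barcode was removed where mitochondrial genes took 10% of its UMIs or more, or where its log UMI or gene number lay over 3 median absolute deviations from its library's median. For each of 14 marker lists the share of UMIs was divided by a reference level, the median of that share over the 30 to 5000 cells with the highest share among cells with at least 2000 UMIs. A cell took the class of its highest list at 0.25 or more, with at least 2 markers and 3 UMIs, with every other list at 0.5 of it or less, and, outside those classes, with the cancer-cell list and (for non-myeloid classes) the macrophage list under 0.25. Cells with several lists past the gate were set aside as mixed, which stands in for a doublet caller, and other cells as ungated. Classes needed 50 cells in both libraries together and 10 in each. UMIs were summed by class and library. Levels carry exact Poisson intervals and ratios exact conditional intervals, and with 1 library for each genotype no test was made. All S100 genes were named; beside them the rule took the 3 genes most alike in profile, the partner list and the other S100 genes. Positions came from GENCODE vM21 on GRCm38. Computation used Python 3.11.15, numpy 2.4.6, scipy 1.17.1, pandas 2.3.3 and matplotlib 3.10.9. The steps were also run on simulated cells drawn from the profiles of the gated classes, which cannot test the choice of markers. The alternatives tried were other gate levels, limits, lists, cell filters, depths and UMI minimums.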

Additional observations from a re-analysis of the deposited data

Results flagged for a closer look

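*S100a8* differed in direction between classes: the log2 ratio of KO to CT was 1.17 in cancer cells and 0.34 in macrophages, but -1.39 in monocytes and -0.30 in granulocytes. *S100a9* was higher in KO cancer cells (1.09) and fibroblasts (2.13) and lower in KO granulocytes (-0.37). These differences between classes were not tested, since each genotype has 1 library. Cells outside the compared classes (mixed, ungated and removed barcodes) held 36.8% of the *S100a8* and 37.1% of the *S100a9* UMIs in CT, and 38.2% and 37.0% in KO.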

How the results depend on the processing

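The number of S100 genes with the same leading class (7) lay between 6 and 7, and the number of pairs past 2-fold (4) between 3 and 6, under the alternatives tried (6 with lists that lacked their top marker and in thinned cells, 3 at a gate level of 0.5 and at a minimum of 200 UMIs). With the cancer-cell and macrophage lists under 0.10 the *S100a9* to *S100a8* ratio of KO granulocytes was 1.78 in place of 1.85, and with cells thinned to 1000 UMIs it was 1.67; the cause was not tested. Of 117 log2 ratios recomputed for single genes, 113 kept their sign, and none of the ratios past 2-fold changed sign. However, 31 of the 117 lay outside the counting interval of the main setting. *S100a8* in monocytes was -0.75 at a gate level of 0.5, and *S100a9* in cancer cells was 0.99 there and 0.91 in thinned cells, all under 2-fold. With mitochondrial UMIs under 5%, *S100a8* and *S100a9* in cancer cells were at 1.78 and 1.65. Leaving out the cell of the most UMIs, or the barcodes that both libraries hold, were alternatives chosen after seeing the data, and without those barcodes the counts were again 7 and 4. No paired analysis was possible because each genotype has 1 library and the labels number no replicates. Pericytes, dendritic cells, T cells and ECs rest on 28 to 63 cells for each library, which limits what could be detected there.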
